A study of Mus musculus with 9 samples.

Results

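The genes described here are 9 genes grouped for contraction of mammary myoepithelial cells, Acta2, Acta1, Actg2, Myh11, Myl9, Mylk, Cnn1, Tagln and Oxtr. Most are contractile genes shared with smooth muscle, but Acta1 encodes the actin of skeletal muscle and Oxtr a receptor. All 9 were taken as the probes that carry one of these gene names in the scanner files. This gave 17 of the 41174 probes on the array. Of these, 15 passed the filter on dim probes, as did 26835 probes of the array, and all 9 genes kept at least 1 probe.

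The RNA was from cells of fresh mouse mammary tumours, of the models MMTV-Wnt-1 and MMTV-Her2, sorted as GFP-, that is, without green fluorescent protein. In these models a viral promoter active in mammary epithelium expresses Wnt-1, a secreted ligand, or Her2, a growth factor receptor. The 5 Fzd8-CRD arrays carried cells labelled as treated with Fzd8-CRD, a soluble Wnt-binding domain of a Frizzled receptor that acts as a Wnt inhibitor, and the 4 control arrays carried cells labelled as control. Each array set these cells, in the red dye Cy5, against a pooled reference RNA in the green dye Cy3. The labels name both tumour models on every array of either group, so the models could not be separated. The design text calls the arrays biological replicates, but the labels do not give the age of the mice, which cells carried the fluorescent protein, or whether tumours were pooled, and p-values measure the spread between these arrays. The protocol field names the inhibitor for the control arrays too, so the control treatment stays unknown. The comparison asked how expression differed in cells exposed to the Wnt inhibitor.

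Myoepithelial cells form the contractile outer layer of mammary ducts and alveoli. Oxytocin binds its receptor Oxtr on them, calcium rises, myosin light chain kinase phosphorylates the regulatory light chain of myosin II, and the cells squeeze milk towards the nipple. Their actin, myosin, calponin and transgelin are those of smooth muscle, and many of these genes are driven by serum response factor, which binds a DNA motif called the CArG box.

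All 4 control arrays lay on 1 slide, and 4 other slides, scanned 367 or 378 days later, held the 5 Fzd8-CRD arrays, so slide, scan day and treatment cannot be told apart. The labels disagree on what the reference RNA was. The share of spots well above background in Cy5 was 52.5% to 60.0% on Fzd8-CRD arrays and 63.8% to 70.8% on control arrays. Control replicate 2 stood apart from the other arrays, with correlations of 0.602 to 0.727 over all probes. The epithelial keratin genes Krt5, Krt14 and Krt8 were well above background in Cy5 on all 9 arrays. In bulk samples such as these, more cells of a type and more RNA per cell cannot be told apart.

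Promoters of 6 of the 9 genes (Acta2, Acta1, Myl9, Mylk, Cnn1 and Oxtr) were found in the RefSeq table for build GRCm38.p6, and the actins and Myl9 are shown because they hold CArG motifs. Each line gives the 250 bases before the transcription start, 5′ to 3′ on the gene's strand. Capitals mark matches to the CArG box that allow at most 1 C or G in its A and T middle, a looser form chosen after seeing the data.
Acta2, chr19:34255374-34255623, minus strand: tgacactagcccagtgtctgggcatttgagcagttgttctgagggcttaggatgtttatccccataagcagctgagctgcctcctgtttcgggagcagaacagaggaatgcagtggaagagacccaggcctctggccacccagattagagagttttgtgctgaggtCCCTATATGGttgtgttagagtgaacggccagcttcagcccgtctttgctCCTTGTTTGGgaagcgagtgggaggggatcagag
Acta1, chr8:123894776-123895025, minus strand: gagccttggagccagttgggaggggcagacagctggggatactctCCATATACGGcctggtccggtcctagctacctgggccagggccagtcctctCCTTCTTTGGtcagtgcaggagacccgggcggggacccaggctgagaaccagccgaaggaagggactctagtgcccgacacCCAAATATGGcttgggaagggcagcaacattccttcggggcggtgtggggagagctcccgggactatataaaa
Myl9, chr2:156775214-156775463, plus strand: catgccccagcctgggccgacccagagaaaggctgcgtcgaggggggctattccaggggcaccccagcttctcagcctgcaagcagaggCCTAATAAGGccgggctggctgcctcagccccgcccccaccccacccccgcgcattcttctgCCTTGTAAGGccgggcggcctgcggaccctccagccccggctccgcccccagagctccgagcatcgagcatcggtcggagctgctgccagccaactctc

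Motifs were searched on both strands over these 250 bases and the 50 bases after the start. The CArG box in its strict form was found in the promoters of Acta1, at -73 to -64 from the start, and Myl9, at -161 to -152. It was present in 1.63% of the 32851 promoters of the table. The looser form added 2 matches in Acta2, 2 in Acta1 and 1 in Myl9, and was present in 9.98% of all promoters. Neither form was found in the windows of Mylk, Cnn1 and Oxtr. The TATA box, searched as TATAAA, was found in Acta1 alone among the 6 and in 13.6% of all promoters. The E box, searched as CANNTG, was found in 5 of the 6 and in 72.3% of all. No match of one motif overlapped a match of another, apart from strict matches counted again in the looser form. A match describes letters only and is no evidence of binding.

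The actins are close relatives, so array sequences for Acta2 and Acta1 are also shown. Coordinates are those of build mm8, given in the scanner files, and the letters are the 60-base probes of the array.
Acta2 A_51_P450957, chr19:34314502-34317756, minus strand: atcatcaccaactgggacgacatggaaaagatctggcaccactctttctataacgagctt
Acta1 A_51_P246854, chr8:126778387-126778446, minus strand: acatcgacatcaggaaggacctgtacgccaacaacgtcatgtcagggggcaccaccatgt
The Acta2 probe covers 3255 genomic bases, so its genomic match is interrupted, while that of Acta1 is not. Both have at least 1 reading frame without a stop codon. Each was set without gaps against the other probes of the array that held a short identical run in the same orientation. Among these, the Acta2 probe shared at most 36 bases with another probe, and that of Acta1 at most 20. Probes without such a run were not compared. Binding of other actin transcripts to these probes was not tested. The other 4 Acta2 probes are A_52_P420504, A_52_P210078, A_52_P239556 and A_52_P644232, of which the first is printed 10 times per array (8 to 10 spots were used).

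In the ratio of tumour cells to reference, 3 of the 15 probes were higher in the Fzd8-CRD group at an adjusted p below 0.05 (limma with Benjamini-Hochberg adjustment over all probes tested), namely those of Tagln, Acta1 and Cnn1, and none was lower. Over all 26835 probes tested, 6.77% were higher and 7.84% lower. The median difference of the 15 probes was 1.03 on the log2 scale, against -0.06 over all probes, and 11 of the 15 lay above 0, against 43.7% of all probes. The remaining 4, 1 probe each of Acta2, Actg2, Mylk and Oxtr, lay below 0. Leaving out 1 array at a time gave between 1 and 6 probes higher, and centring by the median without loess or scaling between arrays gave 0. Each difference given is that of the group means of log2 values, Fzd8-CRD less control, and SE is its standard error.

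Tagln encodes transgelin, an actin-binding protein abundant in smooth muscle. Its probe A_51_P450527 had log2 ratios of 2.49, 2.45, 1.36, 2.20 and 2.75 on the Fzd8-CRD arrays, against 0.05, 0.25, 0.99 and 1.21 on the control arrays. Every Fzd8-CRD array thus lay above every control array. The difference was 1.62 (SE 0.32, adjusted p = 0.0131 by limma), and it passed with each single array left out. It did not pass with median centring (adjusted p = 0.0784) or scaling between arrays (adjusted p = 0.0508). The Tagln probe A_52_P517683, which lies 759 genomic bases away, averaged 1.73 ± 0.61 on Fzd8-CRD arrays (SD, n = 5) and 0.95 ± 0.48 on control arrays (SD, n = 4). Its groups overlapped, and its difference of 0.79 (SE 0.33) did not pass (adjusted p = 0.136 by limma).

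Acta1 encodes the actin of skeletal muscle. Its log2 ratios were 2.06, 2.05, 1.09, 2.30 and 2.61 on Fzd8-CRD arrays, against 0.13, 0.67, 1.01 and 1.08 on control arrays, and the groups did not overlap, although the lowest Fzd8-CRD array and the highest control array nearly met. The difference was 1.30 (SE 0.31, adjusted p = 0.0234 by limma). Without Fzd8-CRD replicate 1 it was 1.29 (adjusted p = 0.0549) and without replicate 4 it was 1.23 (adjusted p = 0.0531). Only Acta1 and Tagln A_51_P450527 had groups that did not overlap, which is 2 of 15 probes, whereas 8.16% of all probes were higher without overlap and 11.1% lower.

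Cnn1 encodes calponin, which binds actin and restrains the myosin ATPase in smooth muscle. Its log2 ratios were 5.77, 6.19, 5.00, 5.58 and 5.82 on Fzd8-CRD arrays, against 4.04, 4.43, 4.96 and 5.14 on control arrays. Fzd8-CRD replicate 3 lay between the upper control arrays and the others lay above all controls. The difference was 1.03 (SE 0.28, adjusted p = 0.0379 by limma). This call was lost with 7 of the 9 arrays left out in turn, and over all 21 alternatives the adjusted p ranged between 0.0089 and 0.143.

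**Figure D1:**
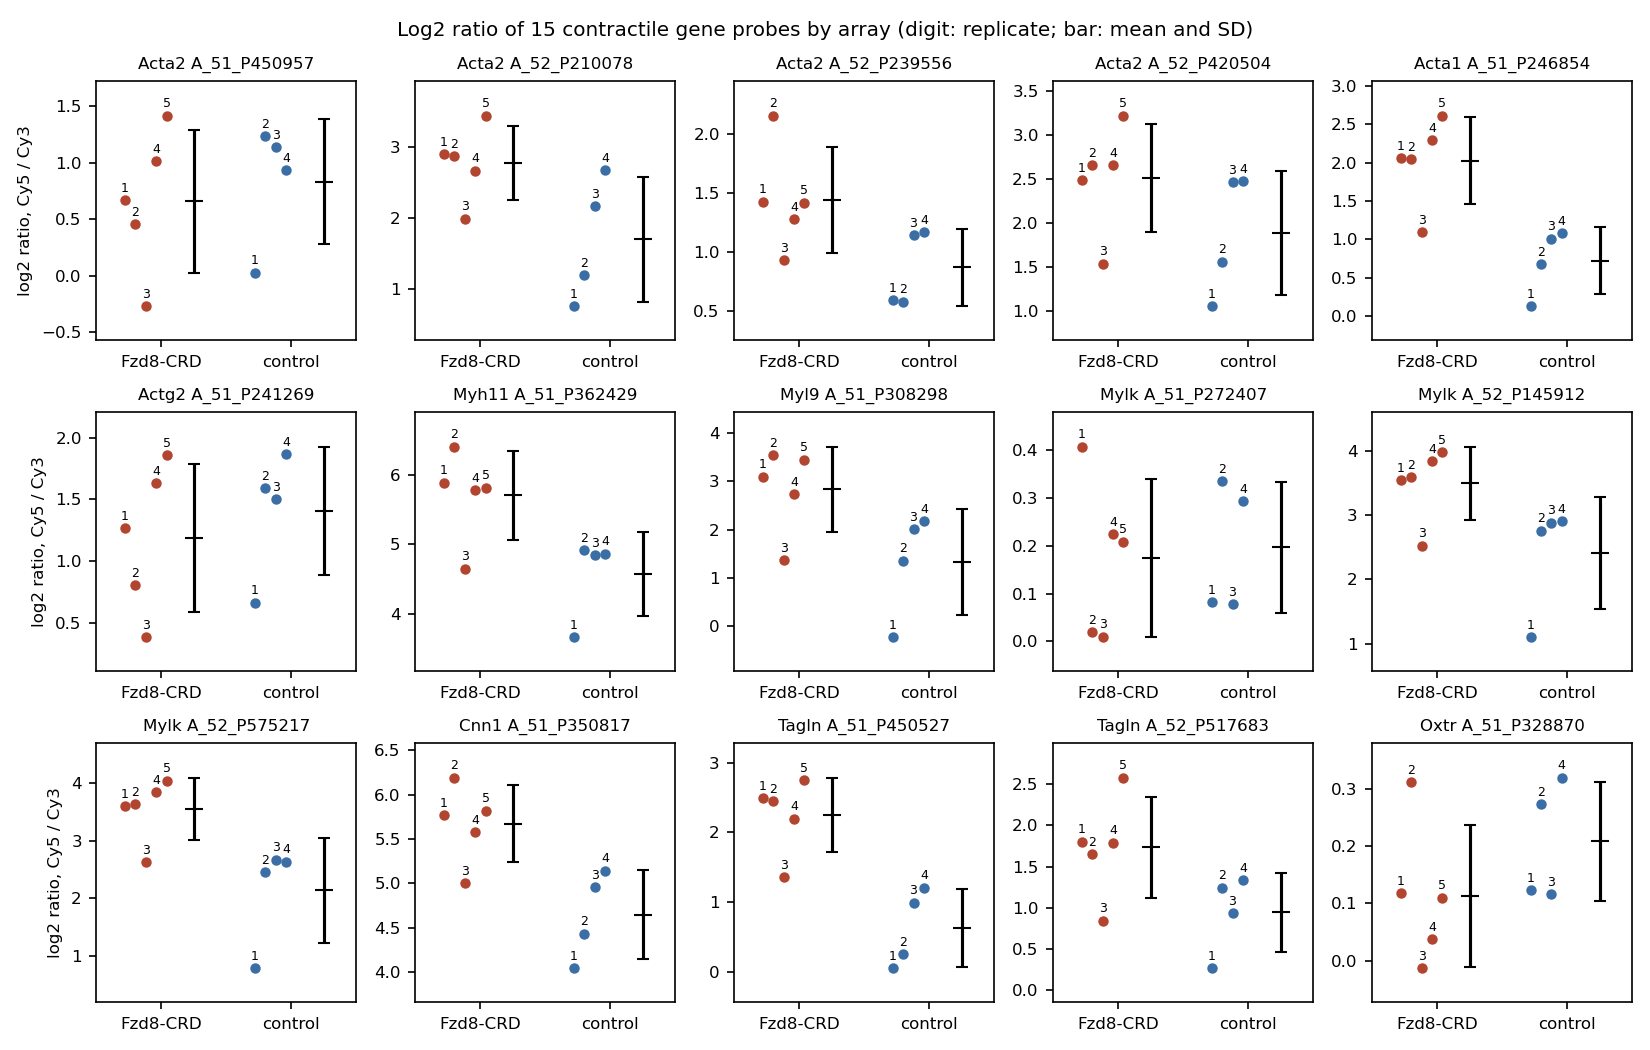
Log2 ratio of Cy5 to Cy3 (y axis, a separate scale for each panel) on the Fzd8-CRD and control arrays for the 15 probes kept by the filter. Points are arrays with their replicate number, and bars give the mean and SD (n = 5 and n = 4). Fzd8-CRD replicate 3 is the lowest of its group in all 15 panels, and control replicate 1 is the lowest of its group in 12.

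The motor and its light chain differed in the same direction without passing the threshold. Myh11 encodes the smooth muscle myosin heavy chain. Its log2 ratios were 5.89, 6.40, 4.65, 5.78 and 5.82 on Fzd8-CRD arrays, against 3.66, 4.92, 4.85 and 4.86 on control arrays. All Fzd8-CRD arrays but replicate 3 lay above all controls, and the difference was 1.13 (SE 0.37, adjusted p = 0.0679 by limma). Without Fzd8-CRD replicate 3 it was 1.40 (adjusted p = 0.0223). Myl9 encodes the regulatory light chain that the kinase phosphorylates. Its log2 ratios were 3.1, 3.54, 1.37, 2.73 and 3.45 on Fzd8-CRD arrays, against -0.24, 1.36, 2.0 and 2.18 on control arrays. The groups overlapped through Fzd8-CRD replicate 3, and the difference of 1.51 (SE 0.57) did not pass (adjusted p = 0.0999 by limma). Without that array it was 1.88 (adjusted p = 0.0412).

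Mylk, the light chain kinase that starts contraction, had 3 probes. Probe A_52_P575217 had log2 ratios of 3.59, 3.63, 2.63, 3.83 and 4.04 on Fzd8-CRD arrays, against 0.79, 2.46, 2.67 and 2.63 on control arrays. The difference was 1.41 (SE 0.42, adjusted p = 0.0514 by limma), and with Fzd8-CRD replicate 3 left out it was 1.63 (adjusted p = 0.0329). Probe A_52_P145912, which lies 1617 genomic bases away, differed by 1.09 (SE 0.42, adjusted p = 0.108 by limma). Within an array, A_52_P145912 minus A_52_P575217 was -0.05 ± 0.04 on Fzd8-CRD arrays (SD, n = 5) and 0.27 ± 0.04 on control arrays (SD, n = 4). In Cy5 this difference was 0.18 and 0.15 with overlapping groups, and in Cy3 it was 0.22 and -0.13 without overlap, so the split lay in the reference dye. The third probe, A_51_P272407, lies 40984 bases further upstream in the gene. It was well above background in Cy5 on 2 Fzd8-CRD and 4 control arrays and in Cy3 on none, and its difference was -0.02 (SE 0.12, adjusted p = 0.913 by limma).

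The smooth muscle actins did not pass the threshold in the ratio. Acta2 encodes smooth muscle alpha-actin, a usual marker of myoepithelial cells. Its 10-spot probe A_52_P420504 had log2 ratios of 2.49, 2.66, 1.54, 2.66 and 3.22 on Fzd8-CRD arrays, against 1.06, 1.56, 2.47 and 2.48 on control arrays. The SD between spots of this probe within an array was 0.04 to 0.15, whereas between arrays it was 0.61 in the Fzd8-CRD group and 0.70 in the control group. Control arrays fell into a low pair and a high pair, and the high pair lay among the Fzd8-CRD arrays. The difference was 0.62 (SE 0.38, adjusted p = 0.288 by limma). Probes A_52_P210078 and A_52_P239556, which lie within 1 kilobase of it, differed by 1.07 (adjusted p = 0.103) and 0.57 (adjusted p = 0.140) in the same test.

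Acta2 A_51_P450957, the probe printed above, did not follow the other Acta2 probes. It had log2 ratios of 0.67, 0.46, -0.27, 1.02 and 1.42 on Fzd8-CRD arrays, against 0.03, 1.24, 1.14 and 0.93 on control arrays, a difference of -0.18 (SE 0.35, adjusted p = 0.758 by limma). Within each array it lay below the 10-spot probe, by a log2 difference of -2.20 to -1.64 on Fzd8-CRD arrays and of -1.55 to -0.32 on control arrays. These ranges did not overlap. They did not overlap in the dyes alone either: in Cy5 the difference between the probes was -3.69 to -3.20 on Fzd8-CRD arrays and -2.51 to -1.06 on control arrays, and in Cy3 it was -1.62 to -0.95 and -0.69 to -0.60. This pair of probes was chosen after its values were seen, so no test is given. The fifth Acta2 probe, A_52_P644232, was well above background on 2 Fzd8-CRD arrays and on no control array and was not tested. Its log2 Cy5 values were 7.0, 6.97, 6.32, 6.72 and 6.32 on Fzd8-CRD arrays, against 6.35, 6.33, 6.41 and 6.32 on control arrays, so only Fzd8-CRD replicates 1, 2 and 4 lay above the controls, and no fold is given.

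Actg2 encodes the gamma-actin of enteric smooth muscle. Its log2 ratios were 1.26, 0.81, 0.38, 1.63 and 1.86 on Fzd8-CRD arrays, against 0.66, 1.59, 1.5 and 1.87 on control arrays. The groups overlapped fully, and the difference was -0.22 (SE 0.34, adjusted p = 0.678 by limma). Oxtr, the oxytocin receptor, was close to background: probe A_51_P328870 was well above it in Cy5 on 2 Fzd8-CRD and 2 control arrays, and probe A_52_P430422 on none. The first of these averaged 0.11 ± 0.12 on Fzd8-CRD arrays (SD, n = 5) and 0.21 ± 0.10 on control arrays (SD, n = 4). Its difference was -0.10 (SE 0.11, adjusted p = 0.565 by limma). At this signal a difference in Oxtr could not be measured, which does not show that the receptor was absent or equal.

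The Cy5 channel holds the tumour cell RNA without the reference. In it 4 of the 15 probes were higher in the Fzd8-CRD group and none was lower, beside 9.17% higher and 8.04% lower among all probes. Acta1 had log2 Cy5 values of 11.87, 11.78, 10.92, 12.27 and 12.42 on Fzd8-CRD arrays, against 8.82, 9.07, 9.63 and 9.6 on control arrays, and Myh11 had 13.25, 13.67, 11.84, 13.25 and 13.72 on Fzd8-CRD arrays, against 9.9, 11.05, 11.57 and 11.46 on control arrays. The 4 probes were Acta1, which averaged 11.85 ± 0.59 on Fzd8-CRD arrays and 9.28 ± 0.40 on control arrays (difference 2.57, SE 0.31, adjusted p = 0.00184 by limma), Myh11 (2.15, SE 0.44, adjusted p = 0.0128), Tagln A_51_P450527 (1.75, SE 0.28, adjusted p = 0.00567) and Acta2 A_52_P239556 (1.02, SE 0.21, adjusted p = 0.0122). In all 4 the groups did not overlap, which 10.5% of all probes showed in this direction. These 4 calls held in each of the 16 to 17 alternatives tried for Cy5. Cnn1, which passed in the ratio, differed by 1.14 in Cy5 (SE 0.36, adjusted p = 0.0566 by limma). Of the 15 probes 14 were above 0 in Cy5, against 49.7% of all probes, the exception being Acta2 A_51_P450957 at -0.52 (adjusted p = 0.276).

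The reference channel differed between the groups as well. In Cy3 alone 6 of the 15 probes were higher (Acta1, Actg2, Acta2 A_52_P420504, Myh11, Oxtr and Tagln A_52_P517683) and 3 lower (Myl9, Acta2 A_51_P450957 and Mylk A_52_P575217), beside 26.5% and 31.3% of all probes. With the slide as a random block (consensus correlation 0.610), 4 of these calls were lost, with adjusted p of 0.284 for Myh11, 0.153 for Oxtr, 0.363 for Tagln A_52_P517683 and 0.0806 for Acta2 A_51_P450957 by limma. Without the block, 57.8% of the probes differed in the dye that carried no treated RNA. Of the 15 probes 9 lay above 0 in Cy3, against 47.5% of all, and the groups did not overlap for 3 higher and 2 lower probes, against 22.6% and 27.0% of all. Acta1 averaged 10.02 ± 0.10 on Fzd8-CRD arrays and 9.0 ± 0.04 on control arrays in Cy3, a difference of 1.02 (SE 0.05, adjusted p = 4.86e-08 by limma). Actg2 differed by 0.95 in Cy3 (SE 0.10, adjusted p = 1.27e-05), and both probes of Actb, the cytoplasmic beta-actin, by 1.02 and 1.12. Myl9 fell by 0.45 in Cy3 (SE 0.08, adjusted p = 0.000449). For Acta1 the ratio difference of 1.30 is therefore smaller than the Cy5 difference of 2.57, and for Actg2 a Cy5 difference of 0.91 (adjusted p = 0.0813) stood beside a ratio difference of -0.22. Tagln A_51_P450527, Cnn1 and Mylk A_52_P145912 differed by -0.06 to 0.02 in Cy3. Oxtr was well above background in Cy3 on no array. Reference RNA, slide and scan cannot be told apart in this difference.

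**Figure D2:**
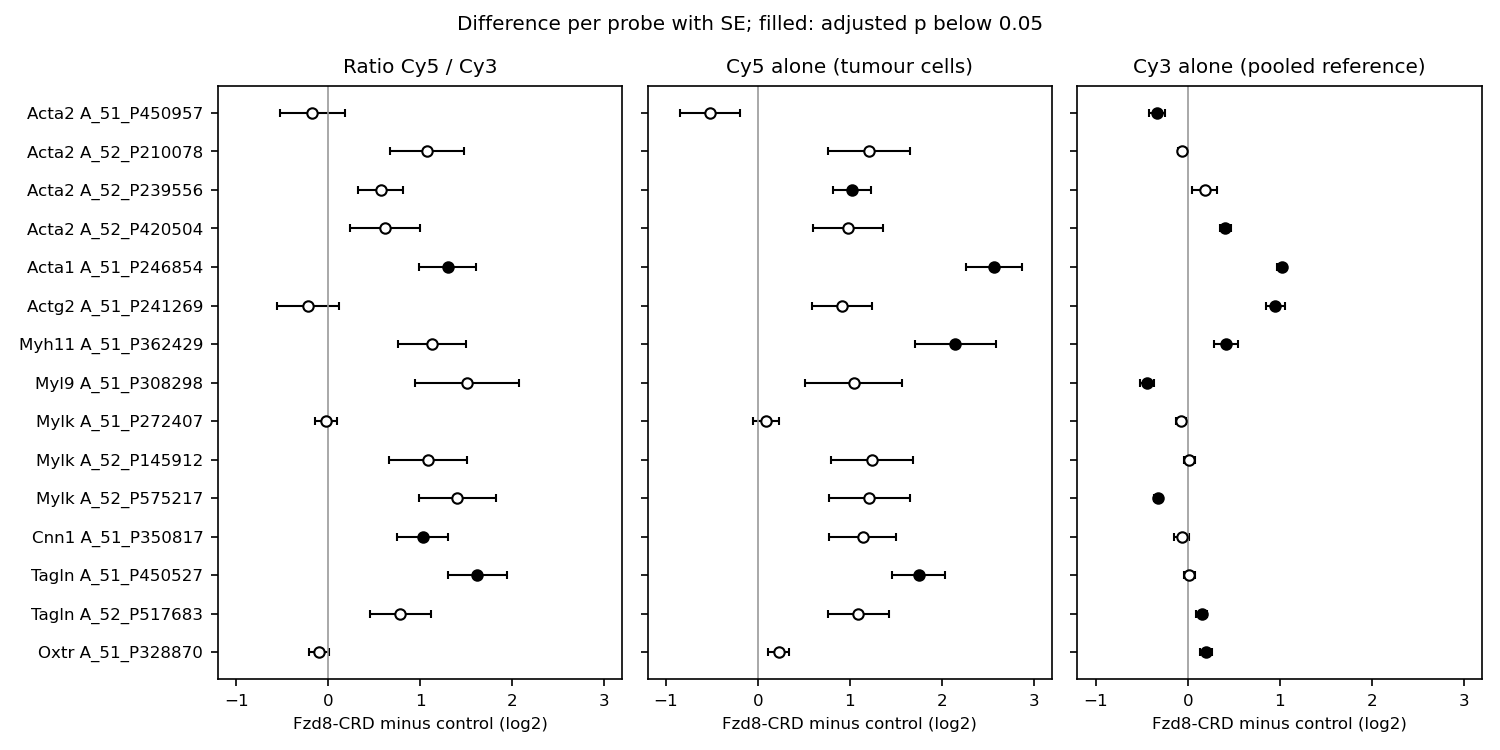
Difference between Fzd8-CRD and control arrays (x axis, log2, Fzd8-CRD minus control, with the SE of the fit) for the 15 probes in the ratio, in Cy5 alone and in Cy3 alone. Filled points have an adjusted p below 0.05. The actin probes of Acta1 and Actg2 lie near 1 in Cy3, and 14 of 15 probes lie above 0 in Cy5.

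Within each group the contractile genes moved together from array to array. Relative to each probe's own mean, the median of the 15 probes was 0.53, 0.58, -0.35, 0.41 and 0.97 on the Fzd8-CRD arrays and -1.18, -0.46, -0.13 and -0.02 on the control arrays. Fzd8-CRD replicate 3 thus lay below control replicates 3 and 4. Across 13 probes with signal well above background in both dyes on all 9 arrays, the correlation between probes of different genes had a median of 0.872 over the 9 arrays and of 0.861 after subtracting the group means. All 70 such pairs were above 0 by both measures. These correlations describe 9 arrays and share each array's depth and reference.

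**Figure D3:**
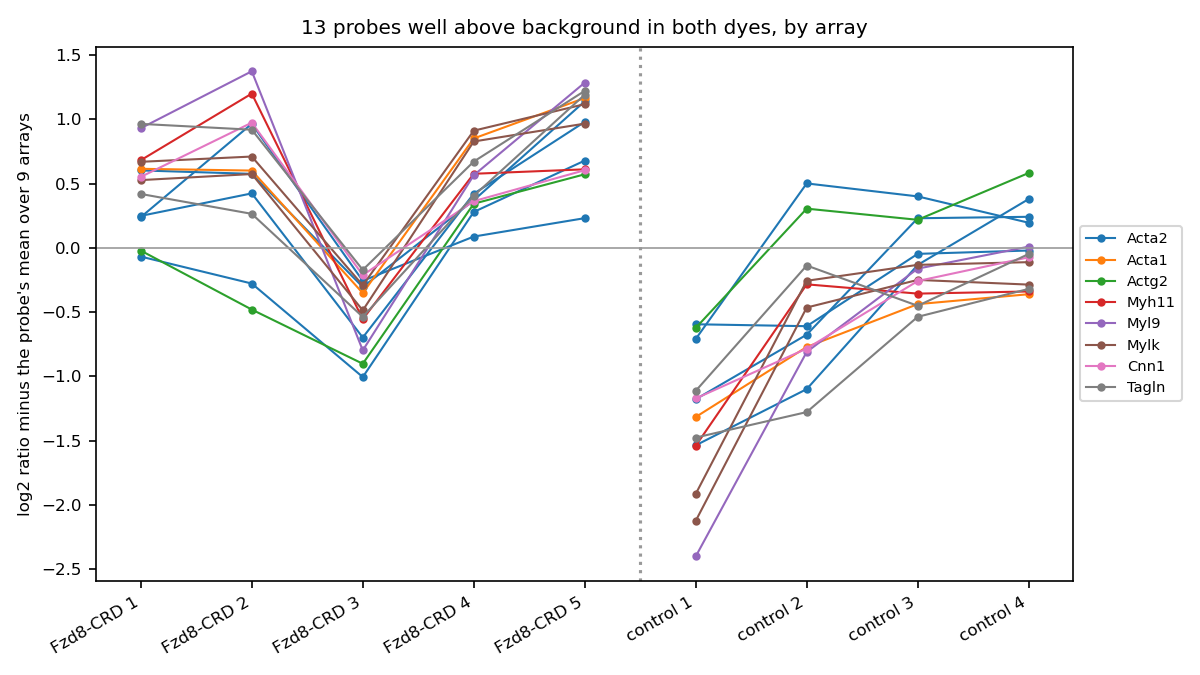
Log2 ratio minus the probe's mean over the 9 arrays (y axis) on each array (x axis) for the 13 probes well above background in both dyes, coloured by gene. Lines only join the values of 1 probe within a group. Nearly all probes dip on Fzd8-CRD replicate 3 and on control replicate 1.

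The genes whose profile was most like that of Acta2 were taken as the highest Pearson correlations with its 10-spot probe over 9 arrays, among 18191 genes represented by their brightest probe. Outside the contractile genes these were Sptbn1, which encodes a spectrin (0.965), Actc1, the cardiac actin (0.963), Reln, which encodes the secreted protein reelin (0.959), and Slit2, a secreted guidance cue (0.957), along with 2 probes that carry no gene symbol. After subtracting group means, the highest named genes were Flna, the actin cross-linker filamin A (0.995), Atad1 (0.983), Sp3 (0.974), Adcy7 (0.973) and Col7a1 (0.972), of which Atad1 and Sp3 stood at 0.04 and 0.13 over the 9 arrays without that step. Of the contractile genes, Myl9 had a correlation of 0.924 (rank 28), Mylk 0.898 (rank 72), Acta1 0.873 (rank 118), Cnn1 0.853 (rank 157), Tagln 0.840 (rank 201) and Myh11 0.809 (rank 328). Actg2 stood at 0.614 and Oxtr at 0.104. Krt8, a luminal keratin, stood at -0.779. A choice among 18191 genes with 9 arrays favours high values, so the ranks are a description.

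Other genes of contraction were read from lists drawn up by function. Over all 26835 probes tested, 3923 passed in either direction as reported, 991 with median centring and 9535 with array weights. List counts under these settings, here and below, stand beside those totals. Of 38 probes for thin filament and filament anchoring genes, 8 were higher and none lower (median 0.40). The count was 13 without Fzd8-CRD replicate 3 and 2 with median centring, and array weights gave 14 higher and 4 lower. They included Lmod1, which nucleates actin filaments in smooth muscle (1.49, SE 0.25, adjusted p = 0.00797 by limma), Flna (1.67, SE 0.35, adjusted p = 0.0151) and Tpm2, a tropomyosin (1.10, SE 0.21, adjusted p = 0.0111). The other probes of Flna differed by -0.40 and 0.62, and that of Tpm2 by 0.85, and none of these 3 passed. Both probes of Cald1, the actin-binding protein caldesmon, also passed (1.20 and 0.92), as did 1 probe each of the filament genes Synm (1.26) and Pdlim3 (1.00), all named after their values were seen. In Cald1 the reference moved more than the tumour cells, with differences of -0.01 and 0.42 in Cy5 and of -1.28 and -0.65 in Cy3. Of 20 probes for actin, myosin, calponin and transgelin paralogs used by other cells, 1 was higher, Myh9, the non-muscle myosin heavy chain (1.04, SE 0.24, adjusted p = 0.0220), and 1 was lower, Myl12b, a light chain of non-muscle myosin (-0.45, SE 0.12, adjusted p = 0.0332; -0.23 in Cy5 and 0.24 in Cy3). Without Fzd8-CRD replicate 3, 4 were higher, and without control replicate 1, 3 were lower. Their median was -0.01 and turned positive with the scanner ratio (0.20), scaling (0.13), median centring (0.14) or without Fzd8-CRD replicate 3 (0.02). The 4 probes of Actb and Actg1 ranged from -0.65 to 0.32 in the ratio without passing. In Cy5 alone, 4 of the 20 paralog probes were higher and 1 lower, beside 9.17% and 8.04% of all probes. Both Actb probes were higher in Cy5 (0.85, adjusted p = 0.0119, and 1.28, adjusted p = 0.0348 by limma). Actc1 was higher in Cy5 as well (2.10, adjusted p = 0.0084 by limma) and differed by 1.32 in Cy3.

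Of 22 probes for genes that set the phosphorylation of the light chain, none was higher and 2 were lower (median -0.22). One was a probe of Rhoa, which encodes a small GTPase (-1.05, SE 0.20, adjusted p = 0.0107 by limma), whose other probe differed by 0.24. The first probe differed by -0.29 in Cy5 (adjusted p = 0.386) and by 0.67 in Cy3 (adjusted p = 8.82e-08), so its lower ratio lay mostly in the reference dye. Without Fzd8-CRD replicate 3 or control replicate 2, 1 probe of the list was lower, and with array weights 6 were. In the calcium signalling that follows the oxytocin receptor, 3 of 23 probes were higher and 3 lower (median 0.05). The median was 0.58 with the scanner ratio and -0.0037 with array weights. The lower count was 1 with the scanner ratio, with scaling, with median centring or without Fzd8-CRD replicate 3, and median centring gave 0 higher. Both probes of Gnaq, the G protein subunit that couples the receptor to phospholipase C, were higher (1.29, SE 0.22, adjusted p = 0.0090, and 1.26, adjusted p = 0.0239), and so was 1 probe of Itpr1, a calcium release channel (0.65, SE 0.17, adjusted p = 0.0303). For the phospholipase gene Plcb1, 1 of the 3 probes with signal above background on all arrays was lower (-0.94, SE 0.26, adjusted p = 0.0398). The other 2 lower calls, a second Plcb1 probe (-0.38) and Avpr1a, a vasopressin receptor gene (-0.77), cleared background on 1 of 5 Fzd8-CRD and 4 of 4 control arrays. They passed the filter only through the control arrays, so these values do not measure the size of a difference.

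Among genes for serum response factor and its partners, 3 of 12 probes were higher and 1 lower (median 0.39). Leaving out control replicate 1 or 2 gave 1 higher, leaving out Fzd8-CRD replicate 3 gave 5, and median centring gave 0. Srf itself differed by 0.22 (SE 0.21, adjusted p = 0.490 by limma). The higher ones were 2 probes of Tgfb1i1, a focal adhesion protein and coactivator (1.19, SE 0.25, adjusted p = 0.0149 for the first), and 1 of Tead1, a partner of the YAP coactivators (0.98, SE 0.26, adjusted p = 0.0373). The lower call was Myocd, which encodes the smooth muscle coactivator myocardin. Its Cy5 signal cleared background on 1 of 5 Fzd8-CRD and 4 of 4 control arrays, so it passed the filter only through the control arrays. Its difference of -1.09 in the ratio, beside -0.58 in Cy5 (adjusted p = 0.0882 by limma), does not measure a size.

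Cell types were followed by markers outside the contractile set. Of 29 probes for basal and myoepithelial genes outside the contractile set, 5 were higher and none lower (median 0.50, and 1.78 under scaling between arrays). The higher count was 13 with the scanner ratio, 8 without Fzd8-CRD replicate 3 and 1 with median centring. The 5 probes were of Krt5 (0.80, SE 0.13, adjusted p = 0.00686 by limma), the laminin gene Lama3 (0.90, SE 0.13, adjusted p = 0.00531), 2 of 3 probes of the integrin gene Itga6 (0.74, SE 0.14, adjusted p = 0.0109 for the first) and 1 of 5 probes of Egfr (1.09, SE 0.11, adjusted p = 0.00181). For Krt5 the difference was 0.07 in Cy5 and -0.80 in Cy3. Krt14 differed by 0.79 (SE 0.26, adjusted p = 0.0692), and the 2 probes of Trp63, the basal transcription factor p63, by 0.12 and -0.29. Luminal genes were lower in 5 of 19 probes and higher in none (median -0.57, but 0.76 under scaling between arrays). The scanner ratio gave 2 higher and 2 lower, scaling 1 higher and 1 lower, and 3 were lower without control replicate 1. Markers of pericytes and vascular smooth muscle, which carry Acta2, Myh11 and Tagln in vessels, were lower in 10 of 18 probes and higher in none (median -0.79). The 10 include the Myocd probe already counted with the serum response factor genes. They also include Rgs4, which cleared background on 2 of 5 Fzd8-CRD and 4 of 4 control arrays. Such probes passed the filter only through the control arrays, so this count and median do not measure the size of a difference. Both probes of Rgs5 were lower (-2.89, SE 0.42, adjusted p = 0.00527, and -2.29), as was 1 of Kcnj8 (-2.86, SE 0.35, adjusted p = 0.00293). The second Rgs5 probe cleared background on 3 of 5 Fzd8-CRD arrays. With the scanner ratio the first Rgs5 probe differed by -0.45 and did not pass (adjusted p = 0.428 by limma). In the same setting the second differed by -2.27 (adjusted p = 0.0221 by limma). Per array, the number of the 21 pericyte and vascular probes on the array that were well above background was 10 to 15 on Fzd8-CRD arrays and 19 to 21 on control arrays.

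Fibroblast markers were lower in 3 of 17 probes and higher in 1 (median -0.98), but lower in 10 without control replicate 1, 9 with array weights and 7 with the scanner ratio. The higher probe, of Pdgfra, cleared background on 1 of 5 Fzd8-CRD and 4 of 4 control arrays. It differed by 0.07 in Cy5 and by -0.11 with the scanner ratio, so its call does not measure a size. The endothelial markers were lower in 14 of 15 (median -2.05). Skeletal muscle markers had 9 of 18 probes kept, of which none passed in either direction (median -0.11), although 1 was past the threshold in Cy5, lower. Of the 13 skeletal muscle genes 9 were kept, and Ckm, Myh2, Myh4 and Pvalb were not. Kept probes of Tnnc2 and Mb were well above background on all 9 arrays, as was Acta1. Per array, 3 to 6 skeletal muscle probes were well above background on Fzd8-CRD arrays and 10 to 12 on control arrays. Erythrocyte markers were lower in 7 of 8 probes (median -4.41), macrophage markers in 1 of 13 (median -0.59), and of 11 lymphocyte probes 1 was higher (median -0.32). That lymphocyte probe, of Ms4a1, cleared background on 1 of 5 Fzd8-CRD and 4 of 4 control arrays. It differed by -0.08 in Cy5 and by -1.17 with the scanner ratio, so its call does not measure a size. The macrophage and lymphocyte counts were both 0 without Fzd8-CRD replicate 3, the lymphocyte count was 0 without control replicate 1, and without control replicate 2, 1 macrophage probe was higher and none lower. With the scanner ratio, 3 erythrocyte probes and 4 macrophage probes were lower. Per array, 4 to 7 erythrocyte probes were well above background on Fzd8-CRD arrays and 8 to 12 on control arrays. The ranges were 10 to 14 against 15 to 16 for endothelial probes, and 9 to 12 against 13 for macrophage probes. Some probes of these lists passed the filter only through the control arrays, so neither these counts nor these medians measure the size of a difference. The part of these other cells in the contractile gene values was not tested. The number of probes above background per array for the contractile genes was 13 to 16 on Fzd8-CRD arrays and 14 to 15 on control arrays.

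**Figure D4:**
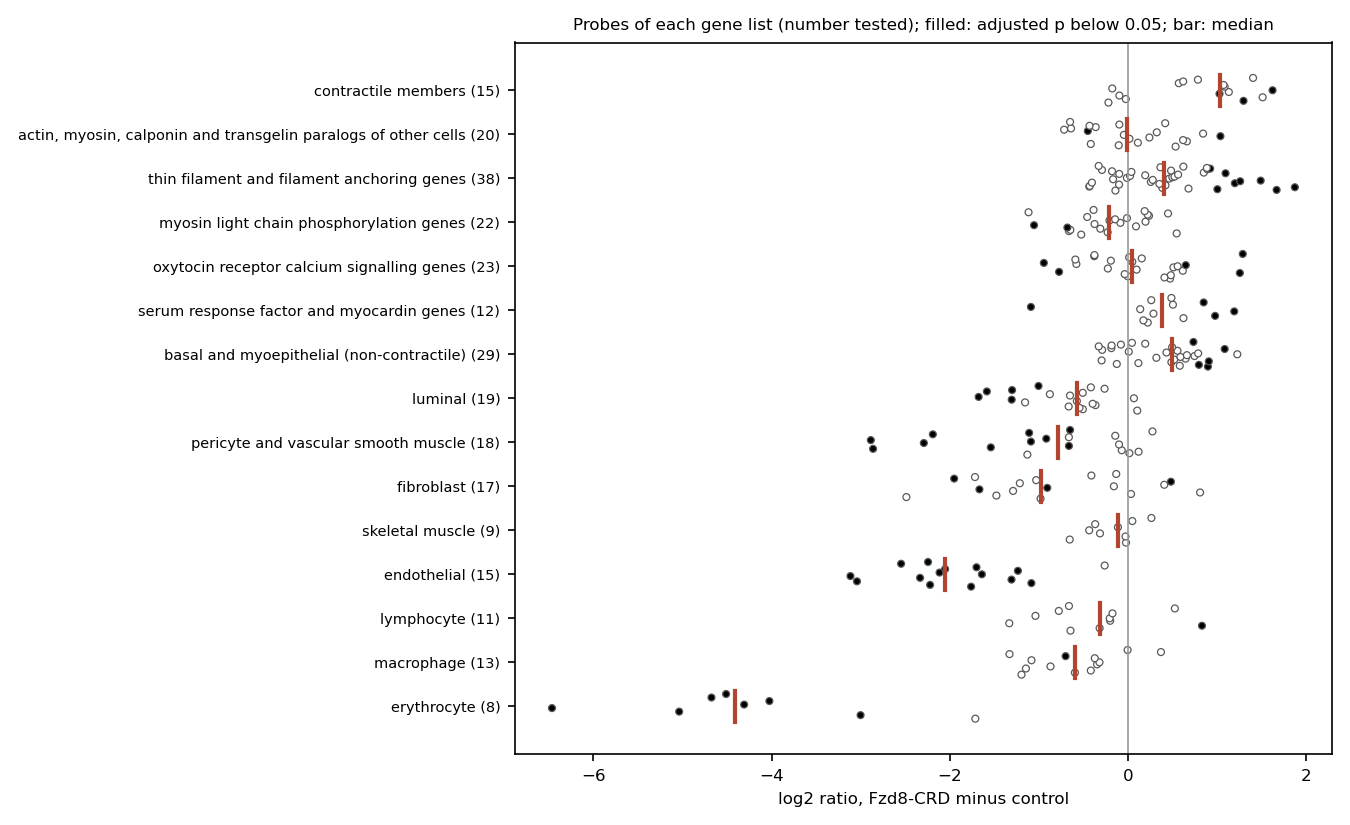
Difference in log2 ratio, Fzd8-CRD minus control (x axis), for every tested probe of each gene list (rows, with the number of probes). Filled points have an adjusted p below 0.05, and the red bar is the list's median. The contractile genes have a median of 1.03, the pericyte and vascular smooth muscle markers one of -0.79 and the endothelial markers one of -2.05. Some probes of these marker lists passed the filter only through the control arrays.

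**Figure D5:**
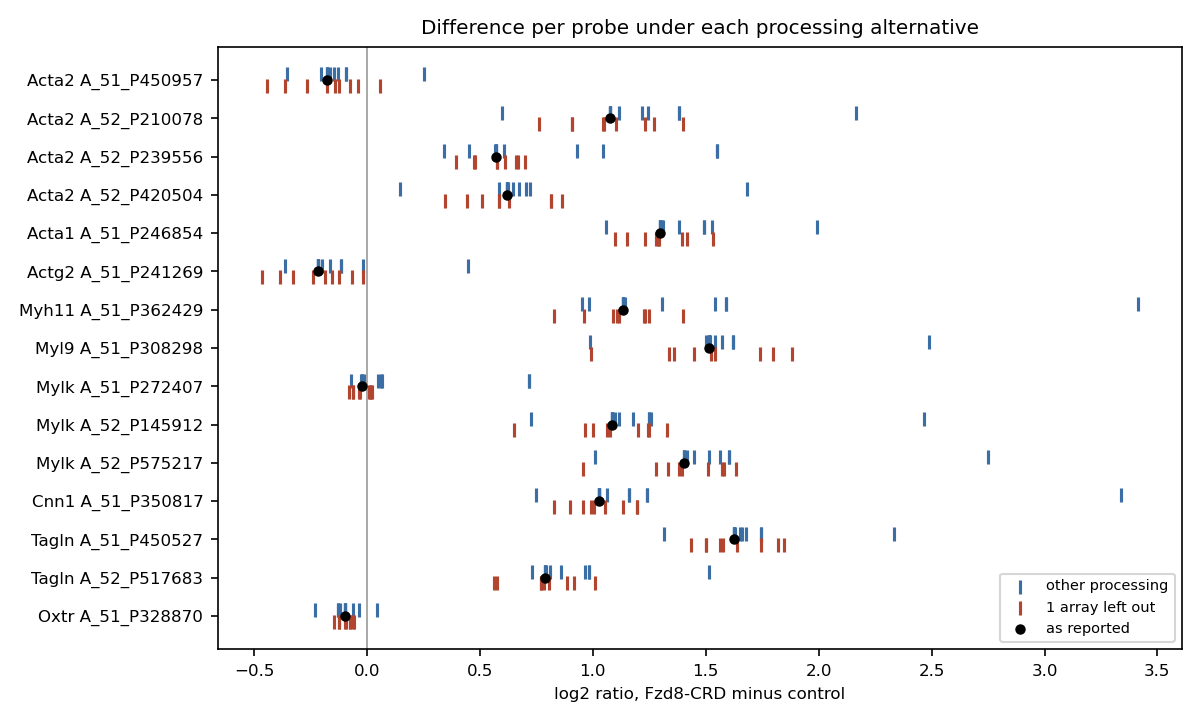
Difference in log2 ratio, Fzd8-CRD minus control (x axis), of the 15 probes as reported (black), with other processing (upper marks) and with 1 array left out (lower marks). The probes of Tagln, Acta1, Cnn1, Myh11 and Myl9 stay above 0 in every setting, while the spread of each probe over the settings is wide, for Cnn1 from 0.75 to 3.34.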

How the data were processed

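Members and gene lists were chosen with earlier results of these data known. Each array's scanner file, per the file headers from Agilent Feature Extraction 9.5.3.1, gives an intensity for the foreground and local background of both dyes. Per the file headers it also holds a log10 ratio of Cy5 to Cy3 from the same software. A deposited table of linear ratio values matched those (lowest correlation 1) and had column medians of 0.833 to 0.954. No source used here says how that table was made. Per the labels, Cy5 carried the tumour cells.

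Each array had 45018 spots, 1639 of them controls. Background was corrected by normexp (offset 50) in limma 3.58.1 (R 4.3.3), and ratios were normalized by loess within arrays with control spots at no weight. Over all arrays 1229 outlier spots were left out and 0 were saturated. Spots of a probe were averaged. A probe stayed in if its Cy5 signal was flagged as well above background on 4 or more arrays. Cy5 and Cy3 alone were quantile-normalized. Groups, taken from the treatment label, were compared probe by probe with limma's moderated test, two-sided, with Benjamini-Hochberg adjustment over all probes and a threshold of 0.05. Offsets understate differences of dim probes, and the number of arrays limits the precision. The comparison was tested on simulated data, with 50 probes at each true difference other than 0. It recovered 10% of the probes with a difference of 0.5, 54% of those with 1 and 84% of those with 2. Probes were named by accession (23374), symbol (6733), synonym (2919) or the file's name (8148).

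Named genes were all contractile probes, from each list up to 4 with the smallest p past the threshold and up to 2 with the largest difference not past it, a fixed set (Krt5, Krt14, Trp63, Rgs5, Pdgfrb, Des, Srf, Myocd, Actb, Actg1) and the genes most like Acta2. Some genes the rule names are not reported here. Pdgfrb differed by -1.13 and Des by -0.10 without passing. Promoters were searched with Python. Protein identities were planned and not run, since no protein sequences were used here. Alternatives covered background correction, normalization, filters, probes per gene, slide as a random block, array weights and each array left out.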

Additional observations from a re-analysis of the deposited data

Results flagged for a closer look

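Control replicate 1 lay far below the other control arrays for 3 probes, by a gap larger than Dixon's critical value for 4 arrays. For Myh11 A_51_P362429 it had a log2 ratio of 3.66, with the nearest control array at 4.85. For Mylk A_52_P145912 it had 1.10, with the nearest at 2.76, and for Mylk A_52_P575217 it had 0.795, with the nearest at 2.46. These are 3 of the 30 groups of arrays examined, and chance alone marks about 1 in 20 independent groups. The groups are not independent, since all 15 probes were read on the same 9 arrays. The 2 flagged Mylk probes correlated at 0.991 over the arrays, so the 3 flags are not separate events. Without control replicate 1, 2 of the 15 contractile probes were higher in the Fzd8-CRD group and the median difference was 0.65, against 1.03 with it.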

How the results depend on the processing

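Slide and scan cannot be told apart from treatment, since no slide holds both groups, and signal over background limits Oxtr, Acta2 A_52_P644232 and Mylk A_51_P272407. No paired analysis was possible because the replicate numbers follow only the order of the arrays and pair nothing. In the ratio, 3 of 15 contractile probes were higher as reported. The count was 6 without background correction, with the scanner log ratio, with the deposited table and with array weights, 8 with the slide as a random block, and 0 with median centring without loess and with scaling between arrays. The consensus correlation of the slide block was -0.164 in the ratio and -0.088 in Cy5. As no slide held both groups, the block could not separate slide from treatment, and its higher counts are no check of a slide effect. Leaving out 1 array gave 1 to 6, the lowest without Fzd8-CRD replicate 1 or 4 and the highest without Fzd8-CRD replicate 3. The count over all probes, 3923 as reported, was 991 with median centring, 2559 with 1 probe per gene, 8049 with the slide as a block, 9535 with array weights and 1892 to 4628 with 1 array left out. In Cy5, 4 probes were higher as reported, 11 with 75th percentile centring, 9 with the slide as a block, 7 with array weights, which also gave 1 lower, and 4 to 9 with 1 array left out. Over all probes Cy5 gave 4620, against 6985 with percentile centring, 9614 with array weights and 2734 to 4751 with 1 array left out. In Cy3, 1 probe was lower with 1 probe per gene, 3 were higher with the slide as a block, where 8451 of all probes differed in place of 15512, and with 1 array left out 4 to 6 were higher and 13840 to 16248 of all probes differed.

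Among the contractile probes, directions turned only for those that did not pass as reported. In the ratio, Mylk A_51_P272407 was 0.048 without background correction, 0.72 with the scanner ratio and 0.72 with the deposited table, 0.065 with scaling and 0.064 with array weights, and -0.082 to 0.023 with 1 array left out. Oxtr A_51_P328870 was 0.045 without background correction. With scaling, Acta2 A_51_P450957 was 0.25 and Actg2 0.45, and the first ranged from -0.44 to 0.056 with 1 array left out. In Cy5, Mylk A_51_P272407 ranged from -0.0083 to 0.15 with 1 array left out. In Cy3 it was 0.80 with percentile centring, where it passed (adjusted p = 0.0292 by limma), and Mylk A_52_P145912 was -0.054 with that centring and -0.019 with array weights. With 1 array left out, Cy3 ranges crossed 0 for Mylk A_52_P145912 (-0.031 to 0.036), Tagln A_51_P450527 (-0.013 to 0.057) and Cnn1 (-0.10 to 0.011). The causes were not tested. Without the filter on dim probes, Acta2 A_52_P644232 differed by 0.23 (adjusted p = 0.413 by limma) and Oxtr A_52_P430422 by 0.0025 (adjusted p = 0.983 by limma).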
